A study of Junonia coenia with 20 samples.

Results

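Hind wing imaginal discs of the Rosa and Linea colour morphs of the common buckeye butterfly, Junonia coenia, were compared at the 5th larval instar. The libraries were chosen by their labels: Linea larva replicates 2 and 3 against Rosa larva replicates 2 and 3, which are 4 of the 16 libraries with a column of values (20 samples are labelled). Replicate 1 of each larval group was not analysed here. The other 12 libraries are pupal hind wings of both morphs, 2 libraries per morph at each of 3 stages: before pigment, during early (yellow) and during late (orange to red) ommochrome deposition. Polyadenylated RNA was sequenced from all of them.

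Per the labels' protocols, the animals came from a North Carolina stock kept on artificial diet either cool at 21°C with 8 h of light or warm at 27°C with 16 h of light per day. Which regime a morph was reared in is not stated sample by sample. No pigment is visible yet in larval discs, so the wing colour of a larva cannot have assigned it to a morph. If each morph came from its own regime, morph and rearing cannot be told apart. The larval differences below would then be differences between rearing regimes as much as between morphs. The labels give neither the sex of the larvae nor whether a library holds discs of several animals, so the p-values below measure only the spread between libraries, which may be technical.

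A wing imaginal disc is an epithelial sheet that grows inside the caterpillar and is patterned into veins, margin and colour fields before it everts at pupation. Pigment is made much later, in the scale cells of the pupal wing, where tryptophan-derived ommochromes give nymphalid wings their yellow, red and brown colours. In this species Linea is known as the tan form of the ventral hind wing and Rosa as the reddish form. The larval comparison therefore asks which transcripts already differ between the morphs before any pigment is visible. The deposited table gives assembly identifiers only and pairs none with a gene name, so no role is given for any transcript, no gene list could be matched, and the disc label could not be checked against marker genes. Whole discs were measured, so fewer cells of a type and less RNA per cell cannot be told apart.

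The unit is RPKM, a read number corrected for how long a transcript is and how many reads a library has. Each library was further divided by a scaling factor, and the outcome is called scaled RPKM here. The factors of the larval libraries lay between 1.67 and 1.81, closer together than those of the pupal libraries (0.578 to 1.42). Between 13398 and 14314 transcripts reached 1 RPKM in a larval library. Read depth is unknown, because RPKM keeps no read count.

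Rosa larva replicate 2 stood apart from the other larval libraries. In it, 76 transcripts were at least 8-fold above every one of the other 15 libraries on the log2(scaled RPKM + 1) scale, at 5 scaled RPKM or more. The same count was 7 in Linea larva replicate 2, 0 in Linea larva replicate 3 and 10 in Rosa larva replicate 3. These 76 transcripts ran from 14 to 4712 scaled RPKM in Rosa larva replicate 2, with a median of 233.5, and they held 9.67% of its summed RPKM. In Rosa larva replicate 3 their median was 0 and 41 of them were listed at exactly 0. In Linea larva replicate 3 the median was also 0, with 44 listed at 0.

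Linea larva replicate 2 held the next highest value for 52 of the 76 (68.4%), at a median of 3.02 scaled RPKM. Its level was 1.36% of that in Rosa larva replicate 2 at the median, with quartiles of 0.962% and 2.62%. The highest of the 12 pupal libraries had a similar median, 2.95, but this is a maximum taken for each transcript and not 1 library. As a share of summed RPKM, the 76 held 0.166% in Linea larva replicate 2. In single pupal libraries they held between 0.00785% and 0.0595%. The larval libraries numbered 3 mostly lacked these transcripts. Because of this, the calls, the 2-fold counts, the presence in 1 morph and the named differences are also given without Rosa larva replicate 2.

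**Figure D1:**
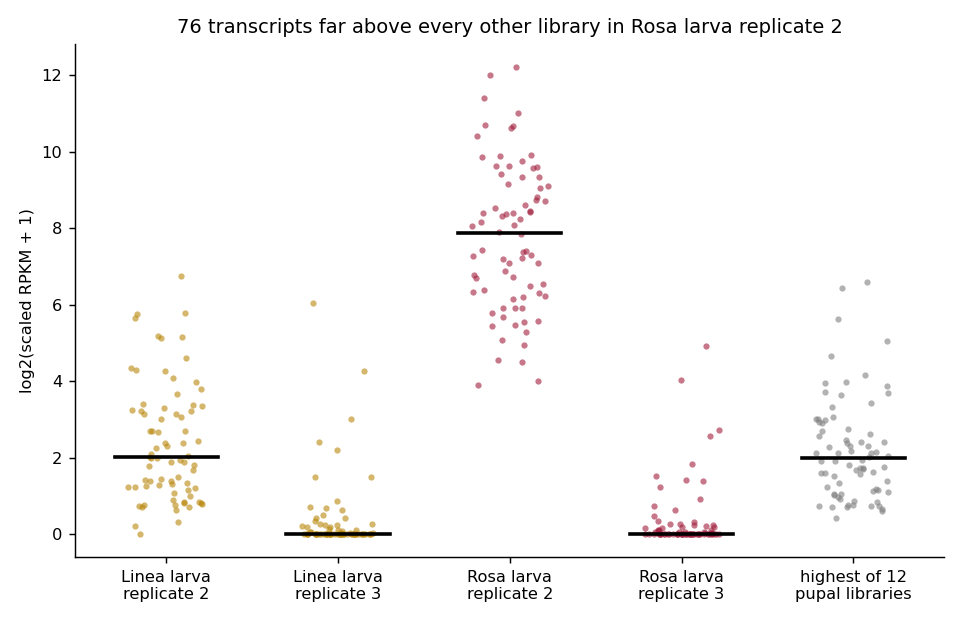
Level, as log2(scaled RPKM + 1), of the 76 transcripts that stood far above every other library in Rosa larva replicate 2, in each larval library and as the highest of the 12 pupal libraries. Each point is a transcript and each black line a median. The medians are 233.5 scaled RPKM in Rosa larva replicate 2, 3.02 in Linea larva replicate 2, 0 in both libraries numbered 3 and 2.95 for the highest pupal library. The points are spread sideways at random for legibility.

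Few transcripts separated the morphs beyond the spread between libraries. Of 15798 transcripts tested, 18 passed the threshold (limma adjusted p under 0.05), 0.114% of all tested. Of these, 4 were higher in Rosa (0.0253%) and 14 were lower in Rosa (0.0886%). The median difference over all tested transcripts was -0.01 log2 units, and 95% of them differed by less than 1.93 log2 units. Without Rosa larva replicate 2, which leaves a single Rosa larval library assumed to vary like the other groups, 41 were called, 21 higher and 20 lower, and 14 of the 18 were among them. With RPKM as deposited the split was 11 higher and 19 lower.

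**Figure D2:**
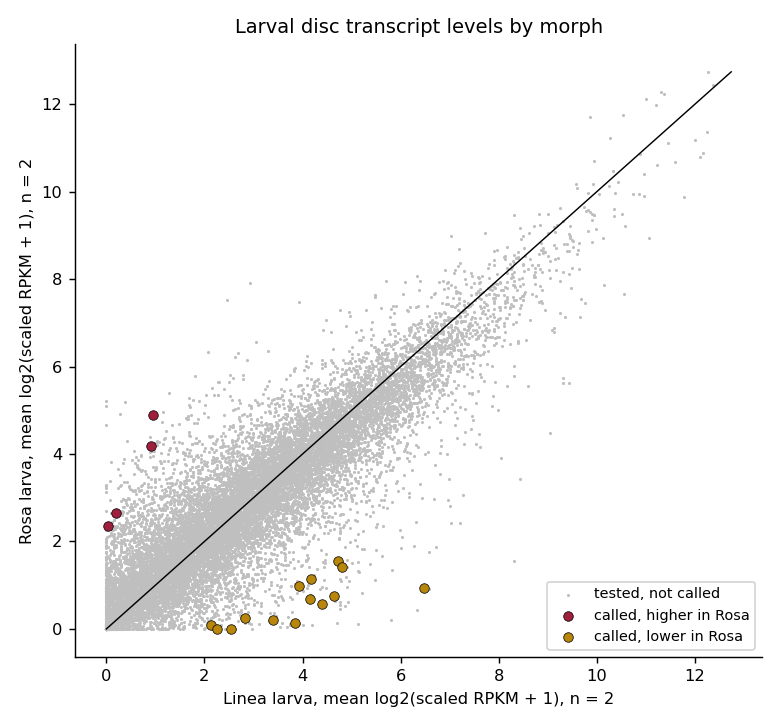
Mean level in Rosa larval discs against the mean level in Linea larval discs, each as log2(scaled RPKM + 1) over 2 libraries, for the 15798 transcripts tested. Grey points were not called, red points are the 4 called higher in Rosa and ochre points the 14 called lower in Rosa. The diagonal marks equal levels. The called transcripts lie at low to moderate levels, and none is above 100 scaled RPKM in either morph.

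The 14 transcripts lower in Rosa were larval transcripts of the Linea disc. In all 14, both Linea larval libraries were above all 12 pupal libraries, which held for 17.3% of the transcripts tested. Their levels ran from 3.53 to 88.9 scaled RPKM in Linea larva replicate 2 and from 2.96 to 88.2 in Linea larva replicate 3. In Rosa they lay between 0 and 1.86 in replicate 2 and between 0 and 2.5 in replicate 3. The 2 Linea libraries were within 2-fold of each other for 13 of the 14 on the log2(scaled RPKM + 1) scale, against 79.1% of all tested. The test favours transcripts with close replicates and little spread in pupae, so these shares partly follow from the selection and are a description. In 8 of the 14, neither Rosa larval library exceeded the highest pupal library. Over all tested, this held for 15.6% with both Rosa libraries also below both Linea ones. The 14 were called for low Rosa values, so that share is no measure of a trait either.

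JC_0002973 showed the largest difference among these 14. It was at 88.9 and 88.2 scaled RPKM in Linea larva replicates 2 and 3, and at 1.72 and 0.346 in Rosa larva replicates 2 and 3. The Linea values almost coincided, and both lay far above both Rosa values. The log2 difference, Rosa minus Linea, was -5.55 ± 0.58 (SE, n = 2 libraries each, limma adjusted p = 0.00368), or -6.06 without Rosa larva replicate 2. Here and below, n counts the larval libraries compared. The SE is that of limma, from a spread estimated over all 16 libraries, and does not measure the spread of the larval values alone. In pupal wings the transcript stayed between 0 and 2.05 scaled RPKM in all 12 libraries, so the level in Rosa larvae was within the pupal range.

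JC_0020131 had 25.2 and 23.0 scaled RPKM in the Linea larval libraries. In Rosa it was at 1.86 in replicate 2 and was listed at 0 in replicate 3. The groups did not overlap, and the log2 difference was -3.89 ± 0.51 (SE, n = 2 each, limma adjusted p = 0.00925). It was -4.65 without Rosa larva replicate 2. The call was lost without either Linea larval library, at adjusted p-values of 0.0908 without replicate 2 and 0.0597 without replicate 3.

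JC_0000755 passed the threshold in each of the 16 fits that left out 1 library, but not with a pseudocount of 0.1 in place of 1 (limma adjusted p = 0.438). It stood at 15.4 and 13.3 scaled RPKM in Linea larvae and at 1.15 and 0.825 in Rosa larvae, with no overlap. The log2 difference was -2.95 ± 0.32 (SE, n = 2 each, limma adjusted p = 0.00368), and -3.07 without Rosa larva replicate 2. No pupal library exceeded 0.392 scaled RPKM. Unlike JC_0020131, its replicates were close together in both morphs.

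The 4 transcripts higher in Rosa did not share a single course. JC_0014339 was at 62.0 scaled RPKM in Rosa larva replicate 2 and at 13.2 in replicate 3, against 1.23 and 0.683 in Linea. Both Rosa values were above both Linea values, but the Rosa libraries differed from each other by more than 4 times. The log2 difference of 3.95 ± 0.59 (SE, n = 2 each, limma adjusted p = 0.0278) was 2.88 without Rosa larva replicate 2 and 5.02 without Rosa larva replicate 3. It passed the threshold in 6 of the 16 fits without 1 library, and not without Linea larva replicate 2 (limma adjusted p = 0.149) or 3 (0.205). In pupal wings of either morph it did not exceed 1.69 scaled RPKM.

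JC_0058877 was the transcript that the pupal wing also uses. In larvae it was at 15.5 and 18.9 scaled RPKM in Rosa and at 0.846 and 0.906 in Linea, with close replicates and no overlap. The log2 difference was 3.27 ± 0.4 (SE, n = 2 each, limma adjusted p = 0.00759), and 3.41 without Rosa larva replicate 2. It was the single transcript called when the test was limited to transcripts with a mean of at least 5 RPKM. Its call was lost without Linea larva replicate 2 (limma adjusted p = 0.0803) or replicate 3 (0.0597).

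Its pupal values ran from 9.51 to 38.3 scaled RPKM across all 12 libraries. At pre-pigment it was at 21.5 and 23.9 in Linea and at 30.2 and 38.3 in Rosa. At late ommochrome the order was the other way, with 34.8 and 25.4 in Linea and 11.1 and 9.51 in Rosa. The low value in Linea larvae is thus the one that departs from the other 14 libraries, and the Rosa larval level lies inside the pupal range.

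JC_0077023 and JC_0077936 were near 0 everywhere except in Rosa larvae. JC_0077023 was at 6.4 and 4.28 scaled RPKM in Rosa larvae, at 0.306 and 0 in Linea larvae and at no more than 0.357 in any pupal library. Its log2 difference was 2.45 ± 0.31 (SE, n = 2 each, limma adjusted p = 0.00886), and 2.21 without Rosa larva replicate 2. JC_0077936 was at 3.2 and 5.25 in Rosa larvae and at 0.0547 and 0 in Linea larvae. Its log2 difference was 2.32 ± 0.3 (SE, n = 2 each, limma adjusted p = 0.00886), and 2.61 without Rosa larva replicate 2. Its mean is under 5 scaled RPKM, which places it outside the rule for naming; it completes the 4 transcripts higher in Rosa and was named after its values were seen. Both lost their calls without either Linea larval library, at limma adjusted p-values between 0.0546 and 0.0775.

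The called transcripts were mostly ones that the pupal wing lacks. Of the 18, 11 were below 1 scaled RPKM in every pupal library: 9 of the 14 lower in Rosa and 2 of the 4 higher in Rosa. Such transcripts made up 357 of the 15798 tested (2.26%). Calls were made for 3.08% of these 357 and for 0.0453% of the other 15441. The spread that the test uses comes from all 16 libraries, and transcripts near 0 in pupae have little spread there. The median within-group SD of the 357, on the log2 scale, was 0.21 in pupal groups and 0.559 in larval groups. For the other 15441 it was 0.695 in pupal groups and 0.508 in larval groups. In a fit on the 4 larval libraries alone no transcript was called (limma, 2 residual degrees of freedom, 1176 at an unadjusted p under 0.05, lowest adjusted p = 0.537).

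Within these 357 transcripts, which reached the test mainly through their larval values, presence was often shared by the morphs. All 4 larval libraries were at 1 scaled RPKM or more for 66 of them. Both Linea libraries and neither Rosa library reached that level for 19, with a median Linea mean of 2.33 scaled RPKM, and 5 of the 19 were called. Both Rosa libraries and neither Linea library did so for 9, with a median Rosa mean of 4.02, and 2 of the 9 were called. Calls over all tested were 0.114%, but these classes were formed from the larval values that the call tests, so the counts are a description. Presence in just 2 libraries that cross the morphs was seen for 34 transcripts in the pair numbered 2, for 19 in the pair numbered 3, for 15 in Linea replicate 2 with Rosa replicate 3 and for 12 in Linea replicate 3 with Rosa replicate 2. The largest class with 2 libraries present was therefore the one that joins Rosa and Linea larva replicates 2.

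The 18 transcripts were followed into the pupal wing. The pupal libraries entered the larval difference through the shared scaling alone, but they also share its estimate of spread. Of the 14 transcripts lower in Rosa larvae, 7 were also lower in Rosa at pre-pigment, 5 at early ommochrome and 3 at late ommochrome. Over all tested transcripts, the sign of the larval difference recurred for 51%, 46.7% and 49.9% at these stages. Of the 4 higher in Rosa larvae, 1 was higher in Rosa at pre-pigment, 3 at early ommochrome and 1 at late ommochrome. At each stage all 14 differed by under 1 log2 unit, against 79.3%, 80% and 82.3% of all tested. Of the 4, just JC_0058877 at late ommochrome differed by more (-1.45). Of the 14, 9 were below 1 scaled RPKM in every pupal library. Most of these signs thus belong to differences near 0, and nothing is read from them.

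The departure of the larval from the pupal morph difference was tested directly, as the larval log2 difference minus the mean of the 3 pupal ones. In this contrast 11 transcripts passed the threshold (limma adjusted p under 0.05), 0.0696% of those tested, and all 11 were among the 18. Both tests use the same larval values, and 7 of the 11 were below 1 scaled RPKM in every pupal library, where the contrast can differ little from the larval difference. Of the 11, 3 were relatively higher and 8 relatively lower in Rosa larvae. An unadjusted p under 0.05 was reached by 971 of all tested (6.15%). JC_0002973 had a contrast of -6.15 ± 0.67 (SE, limma adjusted p = 0.0132), the largest of the 8, and -6.65 without Rosa larva replicate 2. JC_0087009 followed at -3.93 ± 0.48 (SE, limma adjusted p = 0.0132), and was at -4.51 without that library. It was at 20.9 and 19.3 scaled RPKM in Linea larvae, at 1.23 and 0 in Rosa larvae and at no more than 0.555 in pupae, with a larval log2 difference of -3.82 ± 0.42 (SE, n = 2 each, limma adjusted p = 0.00368). In the other direction JC_0058877 had a contrast of 3.46 ± 0.47 (SE, limma adjusted p = 0.0185) and JC_0077023 of 2.51 ± 0.36 (SE, limma adjusted p = 0.031). Without Rosa larva replicate 2 these were 3.6 and 2.27, and the call of JC_0077023 was lost (limma adjusted p = 0.0574).

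Single libraries set this count. It was 18 without Rosa larva replicate 2, 134 without Rosa larva replicate 3 and 0 without Linea larva replicate 2. Among pupal libraries, it fell to 4 without Rosa early ommochrome replicate 1. It was 5 without Linea pre-pigment replicate 1 or 2, Rosa early ommochrome replicate 3 or Rosa late ommochrome replicate 2. It was 6 without Rosa pre-pigment replicate 2 or Rosa late ommochrome replicate 1, and 7 without Linea late ommochrome replicate 2. With RPKM as deposited, 2 were higher and 13 lower, after a shift of the median contrast to -0.18 from 0.03 log2 units.

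**Figure D3:**
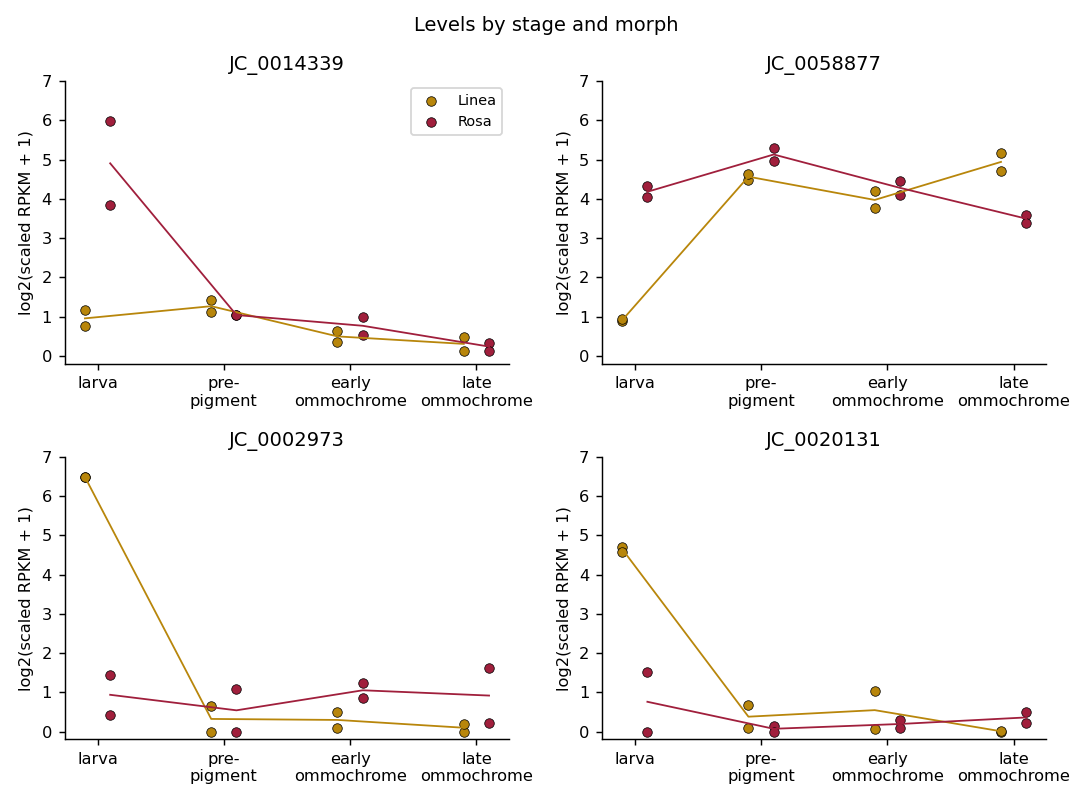
Levels of the 2 called transcripts with the largest difference in each direction, as log2(scaled RPKM + 1), by stage and morph. Each point is a library, and lines join the means of 2 libraries. JC_0014339, JC_0002973 and JC_0020131 are high in the larvae of a single morph and low at every pupal stage, while JC_0058877 is low in Linea larvae alone, at 0.846 and 0.906 scaled RPKM.

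Beyond the calls, the larval groups were compared by the plain order of the 4 libraries. Both Rosa libraries were above both Linea libraries for 2686 transcripts (17% of those tested), and both were below for 3291 (20.8%). The groups thus did not overlap for 37.8%. With 2 libraries a side, a large share separates by the order of the values alone, without any morph difference. The 37.8% is therefore no measure of how many transcripts tell the morphs apart. A stricter count asked for at least 2-fold in every Rosa and Linea pairing, on the log2(scaled RPKM + 1) scale. It found 316 transcripts higher in Rosa (2%) and 470 lower (2.98%). Without Rosa larva replicate 2 the numbers were 990 and 1224, with fewer pairings to satisfy. They were 925 and 1169 without Linea larva replicate 2 and 717 and 914 without Linea larva replicate 3. The balance turned round, to 1706 higher and 1523 lower, when Rosa larva replicate 3 was left out. The 786 of the 4-library count are 4.98% of the transcripts tested; the pupal stages gave 497 at pre-pigment, 795 at early ommochrome and 635 at late ommochrome. Of the 316, 4 were called and 202 had an unadjusted p under 0.05. Of the 470, 14 were called and 315 had one, as did 1024 of all transcripts tested (6.48%). The 2-fold count and the p-value rest on the same larval values, so nothing is read from this.

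Lower transcripts outnumbered higher ones most among the abundant. At a mean of 1 to 5 scaled RPKM over the 4 larval libraries, 131 transcripts were 2-fold higher in Rosa in every pairing and 126 were lower. At 20 to 100 the numbers were 50 and 117, and at 100 or more they were 6 and 36. The median log2 difference was -0.2 at 20 to 100 and -0.36 at 100 or more. Without Rosa larva replicate 2 the imbalance at the top was much smaller, with 50 higher and 66 lower at 100 or more and a median of -0.14. The numbers were then 370 and 358 at 1 to 5 and 162 and 295 at 20 to 100, with medians of -0.11 and -0.12, so the medians no longer differed much between levels. None of the 730 transcripts at 100 or more passed the threshold, and 60 of them had an unadjusted p under 0.05 (8.22%). Of the 100 most abundant transcripts, 4 were 2-fold lower in Rosa in every pairing and 0 were 2-fold higher.

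Presence in the discs of a single morph was rare. At 5 scaled RPKM or more in both libraries of a morph and below 1 in both of the other, 26 transcripts were present in Rosa only (0.16% of the 16251 listed) and 23 in Linea only (0.142%). The same counts were 17 and 36 at pre-pigment, 17 and 53 at early ommochrome and 39 and 14 at late ommochrome. Between single libraries such differences were common within a morph too: 331 transcripts were at 5 or more in a Linea larval library and below 1 in its replicate, and 715 in Rosa, against 469 to 806 in the 4 pairs that cross the morphs. Without Rosa larva replicate 2, 95 were present in Rosa only and 112 in Linea only, and without Rosa larva replicate 3 the numbers were 257 and 109. They were 100 and 110 without Linea larva replicate 2 and 74 and 53 without Linea larva replicate 3.

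Of these 49 transcripts, 3 were called, 1 in Rosa (3.85%) and 2 in Linea (8.7%), against 0.111% of all listed; presence and call rest on the same larval values, so nothing is read from this. Most varied within pupal groups as well: 15 of the 26 and 18 of the 23 were at 5 or more in a pupal library and below 1 in its replicate, against 19.6% of all listed transcripts. The examples with the highest levels show this. JC_0111653 was at 41.1 and 31.6 scaled RPKM in Rosa larvae and under 0.0001 in both Linea ones, yet at pre-pigment Linea replicate 1 had 0.00143 and replicate 2 had 11.3. At early ommochrome it was listed at 0 in Rosa replicate 1 and at 51.1 in replicate 3. Its larval log2 difference of 5.21 ± 1.67 (SE, n = 2 each) did not pass (limma adjusted p = 0.592), and it was 5.03 without Rosa larva replicate 2.

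JC_0097304 was at 41 and 30.5 scaled RPKM in Rosa larvae and at 0.705 and 0 in Linea larvae. Its pupal libraries lay between 14.6 and 56.7, apart from Linea early ommochrome replicate 2 at 0.0003. The larval log2 difference of 4.8 ± 1.05 (SE, n = 2 each, limma adjusted p = 0.245) was called without Linea early ommochrome replicate 1 (0.0148) or replicate 2 (0.0156), and was 4.59 without Rosa larva replicate 2. Both Rosa values thus lay inside the pupal range, as with JC_0058877.

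JC_0120379 was at 62.4 and 101.1 scaled RPKM in Linea larvae and at 0.0942 and 0.671 in Rosa larvae, a log2 difference of -5.89 ± 1.68 (SE, n = 2 each, limma adjusted p = 0.467), or -5.59 without Rosa larva replicate 2. At late ommochrome the morphs stood the other way round, with under 0.0001 in both Linea libraries and 76.5 and 4.93 in Rosa. JC_0000698 was at 31.7 and 18.9 in Linea larvae and at 0.539 and 0.574 in Rosa larvae. Its log2 difference was -4.03 ± 1.09 (SE, n = 2 each, limma adjusted p = 0.425), or -4.02 without Rosa larva replicate 2. Its highest pupal value was 24.0, in Linea early ommochrome replicate 2, where the other early replicate had 0.148. Neither difference passed the threshold with all libraries, and that of JC_0000698 did so without Linea early ommochrome replicate 1 (limma adjusted p = 0.0445) or replicate 2 (0.0399).

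Libraries of the same morph were not always more alike than libraries of different morphs. Over the 15798 transcripts, the Spearman correlation was 0.868 between the Linea larval libraries and 0.754 between the Rosa larval libraries. Across morphs it was 0.817 between the libraries numbered 3, 0.785 between those numbered 2, 0.826 between Linea replicate 2 and Rosa replicate 3, and 0.727 between Linea replicate 3 and Rosa replicate 2. Rosa larva replicate 3 was thus closer to both Linea libraries than to its own replicate. Between the Rosa replicates 5263 transcripts (33.3%) were 2-fold or more apart, and between the Linea ones 3306 (20.9%), with 26.2% to 36% across morphs.

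The morph difference was also taken in each same-numbered pair of libraries, which share no library with each other. Across transcripts, the difference in the libraries numbered 2 and that in the libraries numbered 3 were correlated at 0.189 (Pearson) and 0.169 (Spearman), and 54.7% had the same sign. With the numbers crossed, Rosa replicate 2 with Linea replicate 3 and the reverse, the Pearson correlation was 0.0297. The same-numbered value was 0.0888 at pre-pigment and 0.102 at late ommochrome. Transcripts are not independent replicates, and these values are a description.

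The number of calls moved with single larval libraries and with the scale. It was 7 without Linea larva replicate 2, with 0 higher and 7 lower in Rosa, of which 6 are among the 18. It was 15 without Linea larva replicate 3, with 0 higher and 15 lower, of which 7 are among the 18. Without Rosa larva replicate 3 it was 174, with 146 higher and 28 lower. Rosa larval discs are then represented by replicate 2 alone, and 70 of the 146 are among the 76 transcripts that stood far above every other library in it. In Rosa larva replicate 3, 111 of the 146 were below 1 scaled RPKM, and 29 were above both Linea libraries. A pseudocount of 0.1 in place of 1 gave 2 calls, both higher in Rosa, of which 1, JC_0058877, was among the 18. The other named calls were then lost, at limma adjusted p-values from 0.182 for JC_0077936 to 0.438 for JC_0020131 and JC_0000755. A mean of at least 5 RPKM gave 1, but this filter left JC_0000755, JC_0087009, JC_0077023 and JC_0077936 untested.

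**Figure D4:**
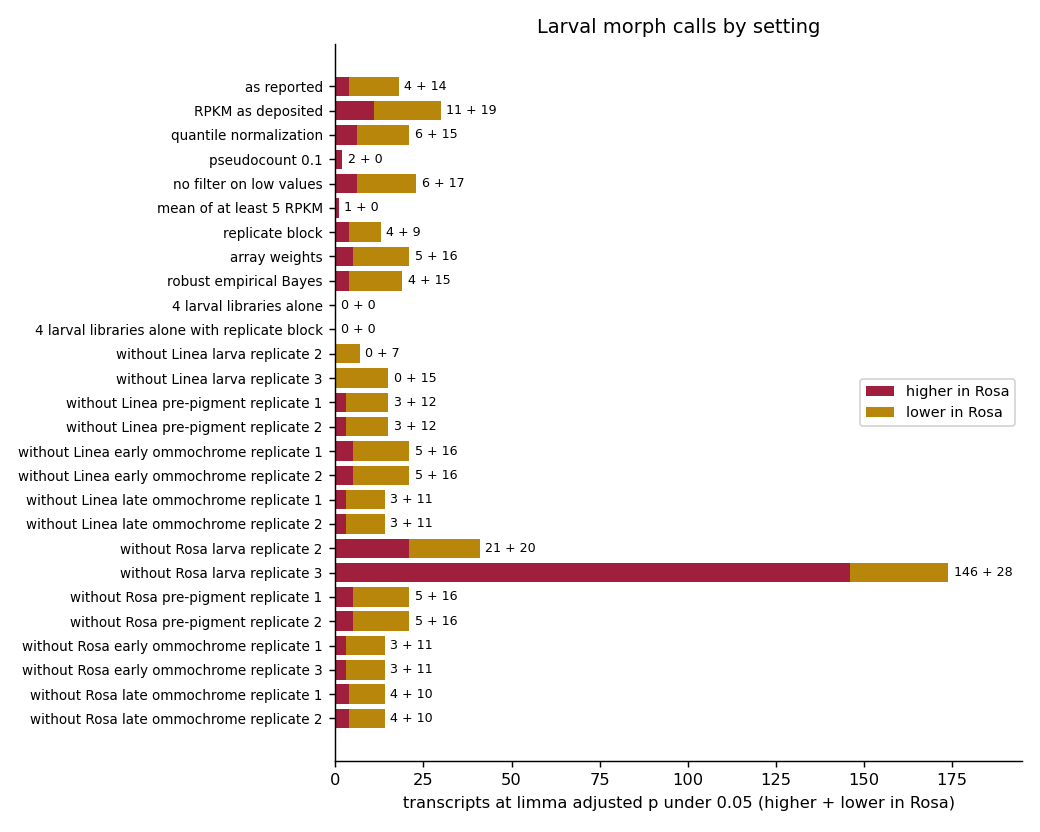
Number of transcripts called between Rosa and Linea larval discs (limma adjusted p under 0.05) as reported, under each other setting and without each library in turn. Bars are stacked, red for higher and ochre for lower in Rosa, with both numbers printed at the end. The count is 18 as reported, between 14 and 21 without any single pupal library, 41 without Rosa larva replicate 2 and 174 without Rosa larva replicate 3.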

How the data were processed

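The authors deposited RPKM, 1 column per library and all 16 matched to samples. Bowtie 0.12.7 is the aligner listed per the submitters' processing notes, and no assembler or estimator is named there. Each column was scaled by its median ratio to the row geometric mean, taken where every library had 1 RPKM or more (7126 transcripts). Of 16251 transcripts, the 15798 with 1 RPKM or more in 2 or more columns entered limma 3.58.1 (R 4.3.3) as log2(scaled RPKM + 1), which understates changes of low transcripts. The model had 8 group means, 8 residual degrees of freedom, an intensity trend and Benjamini-Hochberg adjustment at 0.05. It was also tested on simulated data, but no outcome of that is reported here and no call rests on it. Fits without a library kept the scaling and the transcripts.

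At most 2 transcripts per direction were named by each of 4 criteria: among larval calls, the largest difference and a call in the most fits without 1 library; among contrast calls, the largest larval-against-pupal contrast; and the highest level among those present in 1 morph only. All needed separate groups, the higher with a mean of 5 scaled RPKM or more. Gene lists drawn up for the disc could not be matched to identifiers. The comparison, lists and criteria were chosen with earlier results of these data known. Alternatives covered scaling, pseudocount, filter, weights, robust variances, the replicate block and each library.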

Additional observations from a re-analysis of the deposited data

Results flagged for a closer look

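For 7 named transcripts the morph difference in larvae departed from the mean difference over the 3 pupal stages by a test of that contrast (limma, adjusted p under 0.05). The contrast, in log2 units of Rosa minus Linea, was -6.15 for JC_0002973 (adjusted p = 0.0132), -3.93 for JC_0087009 (0.0132), -3.79 for JC_0020131 (0.0479) and -2.99 for JC_0000755 (0.0132). It was 3.46 for JC_0058877 (0.0185), 2.51 for JC_0077023 (0.031) and 2.34 for JC_0077936 (0.031). JC_0087009, JC_0000755, JC_0077023 and JC_0077936 were below 1 scaled RPKM in every pupal library, so their contrasts nearly repeat the larval differences. With a pseudocount of 0.1, JC_0058877 alone of the 7 was called (limma adjusted p = 0.0157). With a replicate block, JC_0058877, JC_0020131, JC_0077023 and JC_0077936 were not called. All 7 contrasts kept their direction in each of the 16 fits without 1 library, but none passed the threshold without Linea larva replicate 2 (adjusted p from 0.0561 to 0.216).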

How the results depend on the processing

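The 18 larval calls became 30 with RPKM as deposited, 2 with a pseudocount of 0.1, 1 with a mean of at least 5 RPKM (10571 transcripts tested) and 0 in fits on the 4 larval libraries alone, without or with a replicate block (limma, 1176 and 1260 at an unadjusted p under 0.05). They ranged from 7 to 174 when each library was left out, and from 13 to 23 under the remaining settings. The 11 calls of the larval-against-pupal contrast became 2 with a pseudocount of 0.1 and 0 with the mean filter of 5 RPKM (limma, 599 at an unadjusted p under 0.05), and ranged from 0 to 134 without each library. The 49 transcripts present in 1 morph became 13 when presence needed 10 scaled RPKM and 26 when absence meant under 0.5, and 127 to 366 without each larval library. The 786 that were 2-fold apart in every pairing became 1333 with a pseudocount of 0.1, 157 at 4-fold, and 1631 to 3229 without each larval library, where fewer pairings must agree. The filter at a mean of 5 RPKM left called transcripts that are low in pupae untested. JC_0000755, JC_0087009, JC_0077023 and JC_0077936 were left out of both tests in this way, which differs from failing them. JC_0014339 (limma adjusted p = 0.272), JC_0002973 (0.0596) and JC_0020131 (0.34) were tested in larvae and no longer called. For the other changes the cause was not tested.

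The numbers 2 and 3 are shared by both morphs, but nothing in the labels says that they mark a common batch. Across transcripts the difference between replicates 2 and 3 correlated between the morphs at 0.171 (Pearson) in larvae. The like values were 0.379 at pre-pigment and 0.172 at late ommochrome, where the morphs also share both replicate numbers. At early ommochrome, where just number 1 is shared, the value was 0.036. The correlation was thus higher where both numbers are shared. Whether the numbers mark a batch was not tested, and the reported fit leaves the libraries unpaired. With the replicate number as a block, 13 larval calls were made, all among the 18, and 5 in the larval-against-pupal contrast, where JC_0058877 (limma adjusted p = 0.0661), JC_0020131 (0.0843), JC_0077023 (0.0843) and JC_0077936 (0.0931) were not called. For the named transcripts and the correlation of the pair differences, 359 of 476 recomputed values kept their direction and side of the threshold, 112 were no longer past it, 4 came to pass it, and none changed direction. The 1 other value is the correlation of the pair differences with crossed numbers, 0.0297 against 0.189. The named transcripts had separate larval groups, so leaving out 1 larval library could not turn a larval difference round. Leaving out a pupal library does not alter it. The 359 include 3 correlations, which have no threshold, and values of JC_0111653, JC_0097304, JC_0120379 and JC_0000698, which were not called as reported. The tally is thus no measure of stability. Array weights, quantile normalization, robust variances and no low-value filter left the larval count within 1.5 times. RPKM without read counts sets no detection limit.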
